A study of Mus musculus with 58 samples.

Results

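The transcription factor p53 and 9 of its best known target genes for cell cycle arrest, stress kinase signalling and feedback were followed in mice given indeno(123-c,d)pyrene (IP), a polycyclic aromatic hydrocarbon found in combustion products. The 10 genes were chosen by name, from knowledge of the pathway and with earlier results of these data known. They were Trp53, Mdm2, Cdkn1a, Ccng1, Btg2, Plk2, Plk3, Gdf15, Sesn1 and Sesn2. Probes were assigned through their RefSeq accessions, which gave 11 of the 55681 non-control probes of the array and 10 of its 20018 gene names. Cdkn1a had 2 probes, one for NM_007669 printed on 10 spots and one for NM_001111099 printed on 1 spot, and each of the other 9 genes had 1 probe.

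The animals were male Muta™Mouse of about 13 weeks, a transgenic strain that carries a bacterial lacZ reporter for scoring mutations, and this reporter was common to every group. They received IP in olive oil by gavage each day for 28 days, at 12.5, at 25 or at 50 mg/kg-bw/day, or olive oil alone, and tissues were taken 72 h after the last dose. Lung was measured in 5 mice per group, and liver and forestomach in 4 vehicle mice and 5 mice per dose, which gave 58 two-colour arrays from 20 mice. The labels number 5 vehicle lungs whereas the extraction notes state a smaller vehicle group, and all 5 were kept. Vehicle mouse 4 is labelled for lung alone, with no liver or forestomach, so its lung is the array in doubt.

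p53 is held at a low level by the ubiquitin ligase Mdm2, and DNA damage kinases release it from that control. Freed p53 then raises genes that stop the cell cycle, among them the cyclin-dependent kinase inhibitor p21 (gene Cdkn1a), together with genes that switch it off again, chiefly Mdm2. Its abundance is set largely by protein stability, so the transcript of p53 itself often moves little when its targets do. Metabolites of many polycyclic aromatic hydrocarbons bind DNA after oxidation by Cyp1 enzymes, which are induced through the aryl hydrocarbon receptor.

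Because the array held probes for both Cdkn1a transcript records, of which 1 was called in lung, the sequence upstream of the gene's 2 annotated starts is shown, beside that of Plk2, the other gene that passed the thresholds. Each line gives the 250 bases before a start on the plus strand of GRCm38.p6, from the RefSeq promoter table, which does not pair starts with transcript accessions. The windows are chr17:29090729-29090978 for the upstream Cdkn1a start, chr17:29093519-29093768 for the downstream start, 2790 bases further on, and chr13:110394794-110395043 for Plk2. Capitals mark matches to the p53 half-site consensus and, on either strand, to GCGTG, the core of the aryl hydrocarbon receptor element.
Cdkn1a, upstream start: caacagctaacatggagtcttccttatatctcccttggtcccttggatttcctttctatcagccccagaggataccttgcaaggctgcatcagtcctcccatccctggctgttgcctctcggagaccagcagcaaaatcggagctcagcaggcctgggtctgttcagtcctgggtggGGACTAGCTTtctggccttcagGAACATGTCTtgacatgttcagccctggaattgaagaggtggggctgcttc
Cdkn1a, downstream start: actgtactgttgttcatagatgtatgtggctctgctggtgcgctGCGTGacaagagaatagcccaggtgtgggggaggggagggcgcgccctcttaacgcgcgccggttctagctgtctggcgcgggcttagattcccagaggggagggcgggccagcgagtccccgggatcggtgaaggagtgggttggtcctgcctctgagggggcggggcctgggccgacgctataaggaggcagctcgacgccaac
Plk2: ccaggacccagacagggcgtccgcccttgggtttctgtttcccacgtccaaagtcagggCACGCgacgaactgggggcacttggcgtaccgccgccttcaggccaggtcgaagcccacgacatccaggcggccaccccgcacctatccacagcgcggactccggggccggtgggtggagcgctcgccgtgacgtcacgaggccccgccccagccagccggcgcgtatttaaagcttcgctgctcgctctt

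The window of the upstream Cdkn1a start held 2 exact p53 half-sites separated by no more than 13 bases. They made a match to the full-element pattern from -73 to -42 relative to the start. The pattern allows no mismatch, so an element with an inexact half-site was not marked. The bases right after the second half-site, tgacatgttc, miss the consensus at 1 base only, so the match need not give the bounds of the element. The window of the downstream start and that of Plk2 each held 0 half-sites and 1 GCGTG core. Over all 32851 promoter windows of this length, 7.13% held a half-site, 0.0639% a full element and 28.2% a GCGTG core. Among the 13 windows of the 10 genes, a half-site also lay before the starts of Trp53, Mdm2, Ccng1 and one start of Sesn1. A match describes these letters alone, and a window without one says nothing of sites elsewhere in the gene.

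All values are log2 ratios of tissue RNA, labelled with Cy5, to one universal mouse reference RNA pooled from mouse cell lines and labelled with Cy3, so they were compared between samples of a probe and never between probes. These are whole tissues, in which fewer cells of a type and less RNA per cell cannot be told apart. The labelled tissues carried their own markers: 6 lung epithelial genes averaged 5.81 to 6.79 over the lungs and -0.46 to -0.25 over the livers, 6 hepatocyte genes 7.45 to 8.83 over the livers, and 7 squamous genes 4.26 to 5.43 over the forestomachs. Glandular stomach genes ranged from 0.80 to 6.46 over the forestomachs. Their medians were 6.28 in vehicle mice and 2.12, 2.66 and 4.92 from the lowest to the highest dose. Hepatocyte genes ranged from 0.52 to 4.25 over the forestomachs. The part of such admixture in the forestomach values was not tested. The share of probes well above background set some arrays apart: 4 lung arrays, all those of 1 slide and 1 from each group, lay at 83.9% to 90.7% against at most 70.4% elsewhere, 2 dosed forestomach arrays at 81.2% and 85.9% against at most 58.9%, and 5 dosed liver arrays at 66.6% to 78.9% against at most 45.0%. No vehicle liver was among the 5. Members were read well above background on every array, except for the NM_001111099 probe of Cdkn1a (5 of 19 livers and 10 of 19 forestomachs), Plk2 in liver (11 of 19) and Trp53 in forestomach (18 of 19).

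In lung, Plk2 and one of the 2 Cdkn1a probes rose with IP, Gdf15 was higher by a similar amount without passing the correction, and neither Trp53 nor Mdm2 was called. At 50 mg/kg-bw/day, 2 of 11 probes were differentially expressed (FDR-adjusted p of limma at most 0.05 and at least 1.5-fold), both upward, against 0.079% of all probes. No member passed at 25 mg/kg-bw/day, where 0.0126% of all probes did, or at 12.5 mg/kg-bw/day, where 0% did. At an unadjusted p under 0.05 the members counted 2 of 11 at 12.5, 3 of 11 at 25 and 3 of 11 at 50 mg/kg-bw/day, against 3.92%, 6.53% and 8.8% of all probes. The linear trend over dose was called for the same 2 probes, against 0.14% of all probes.

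**Figure D1:**
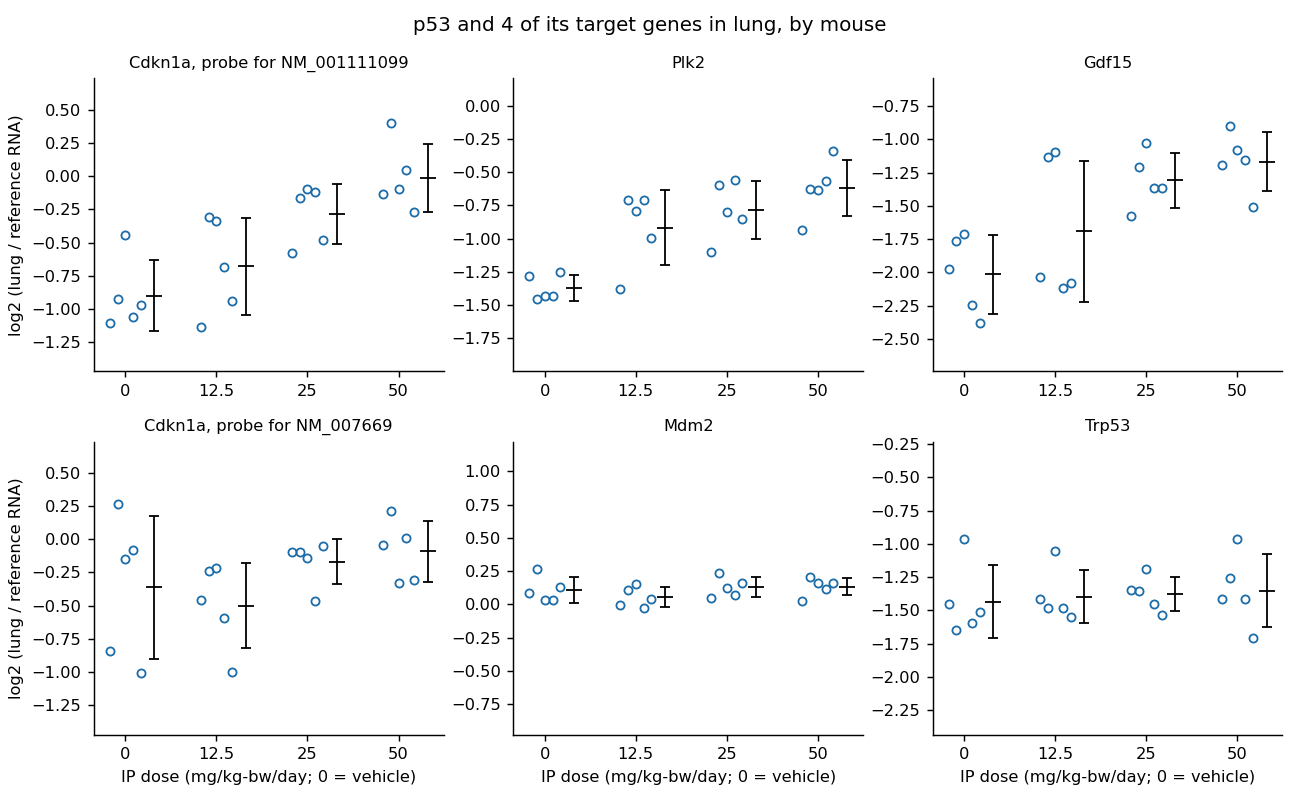
Log2 ratio of lung RNA to the reference RNA (vertical axes, each spanning the same width) by IP dose (horizontal axes, 0 is vehicle) for 6 probes. Open circles are single mice, 5 per group, and the bars give the group mean and SD. The group means of Cdkn1a (NM_001111099), Plk2 and Gdf15 were higher at each higher dose, whereas the groups of Mdm2 and of Trp53 overlapped and the NM_007669 probe of Cdkn1a spread widely among vehicle mice.

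Cdkn1a encodes p21, which binds cyclin-dependent kinases and halts the cycle. Its NM_001111099 probe read -1.10, -0.92, -0.44, -1.06 and -0.97 in the 5 vehicle lungs, -1.13, -0.30, -0.34, -0.68 and -0.94 at 12.5, -0.58, -0.16, -0.10, -0.12 and -0.48 at 25, and -0.13, 0.40, -0.10, 0.05 and -0.27 at 50 mg/kg-bw/day. Every lung of the highest dose lay above every vehicle lung, while vehicle mouse 3 lay within the range of the middle dose. The difference at 50 mg/kg-bw/day was 0.89 on the log2 scale (SE 0.16), or 1.85-fold with a 95% interval of 1.46 to 2.34 (adjusted p = 0.023). At 25 mg/kg-bw/day it was 0.61 (adjusted p = 0.26), and at 12.5 mg/kg-bw/day 0.22. An exact two-sided permutation test gave p = 0.00794 for the highest dose, the smallest value that 5 against 5 mice allow.

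The probe for NM_007669, the brighter of the pair, was not called at any dose. It read -0.84, 0.27, -0.15, -0.08 and -1.01 in the vehicle lungs and -0.05, 0.21, -0.33, 0.01 and -0.31 at 50 mg/kg-bw/day. The highest dose lay within the vehicle range, and the difference of 0.27 had a 95% interval of -0.14 to 0.68 (adjusted p = 0.80). This interval overlapped that of the other probe, 0.55 to 1.23, and the difference between the 2 probes was not tested. The vehicle SD of this probe was 0.54, against 0.26 for the other probe. Vehicle mice 1 and 5, the lowest on it, also had the lowest mean over 10 glucocorticoid-induced genes, -0.25 and -0.05 against 0.76 to 0.94 in the other 3 vehicle lungs, and the part of that in the probe's spread was not tested. Over the 20 lung arrays the 2 Cdkn1a probes correlated at r = 0.52, and at r = 0.39 after each dose group's mean was removed.

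Plk2 and Plk3 are polo-like kinases of the stress response. Plk2 read -1.28, -1.45, -1.43, -1.43 and -1.25 in the vehicle lungs, -1.38, -0.71, -0.79, -0.71 and -0.99 at 12.5, -1.10, -0.60, -0.80, -0.56 and -0.85 at 25, and -0.93, -0.62, -0.63, -0.57 and -0.34 at 50 mg/kg-bw/day. The vehicle lungs stood close together, with an SD of 0.10, and all 10 lungs of the 2 higher doses lay above them. The differences were 0.45, 0.59 and 0.75 on the log2 scale from the lowest to the highest dose, the last 1.68-fold with a 95% interval of 1.40 to 2.02 (adjusted p = 0.013). Plk3 differed by 0.16 at 50 mg/kg-bw/day, with a 95% interval of -0.04 to 0.37 (adjusted p = 0.71).

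Gdf15 encodes a secreted factor of the transforming growth factor family that marks cell stress. It read -1.97, -1.76, -1.71, -2.25 and -2.38 in the vehicle lungs, -2.03, -1.13, -1.10, -2.12 and -2.08 at 12.5, -1.58, -1.21, -1.03, -1.36 and -1.37 at 25, and -1.19, -0.90, -1.08, -1.15 and -1.51 at 50 mg/kg-bw/day. At the lowest dose 2 mice read near the higher doses and 3 within the vehicle range, and at 25 and 50 mg/kg-bw/day no lung overlapped the vehicle lungs. The difference at 50 mg/kg-bw/day was 0.85 (SE 0.19), or 1.80-fold with a 95% interval of 1.36 to 2.38. Its adjusted p was 0.079, so it was not called. The exact permutation p was 0.00794 at both of the higher doses.

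Each of the 5 lung slides held 1 array of every group, so each dosed lung could be set against the vehicle lung of its own slide. The NM_001111099 probe of Cdkn1a was higher on 5 of 5 slides at 50 mg/kg-bw/day, by 0.34 to 1.32, and Plk2 by 0.34 to 1.09. Gdf15 was higher by 0.63 to 1.23, again on 5 of 5 slides. When the model took the slide as a block, 3 member probes passed at 25 as well as at 50 mg/kg-bw/day, and Gdf15 was one of them (adjusted p = 0.018 and 0.0017). The share of all probes that passed in that model is not given, so these counts cannot be set against it. Without the slide term, leaving out single mice left 1 to 3 member probes called at 50 mg/kg-bw/day: the Cdkn1a call was lost without vehicle mouse 2, 4 or 5 or dosed mouse 17, 18 or 19 (adjusted p of 0.059 to 0.074), and Gdf15 was called without mouse 8. Mouse 4, on which the Cdkn1a call depends in this way, is the vehicle mouse labelled for lung alone. Plk2 stayed called without any single mouse, but not without the 4 lung arrays of high detection (0.74, adjusted p = 0.086), where Cdkn1a did (1.02, adjusted p = 0.023). Under median-centring in place of loess, and with the scanner software's own ratio, 0 member probes were called, although both differences stayed positive (Cdkn1a 0.98 and 1.49, Plk2 0.92 and 0.72). Under median-centring, however, every member probe was positive in lung at 50 mg/kg-bw/day, among them Trp53 (0.26), Mdm2 (0.29) and Btg2 (0.09). A positive sign there is therefore not particular to Cdkn1a and Plk2.

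**Figure D2:**
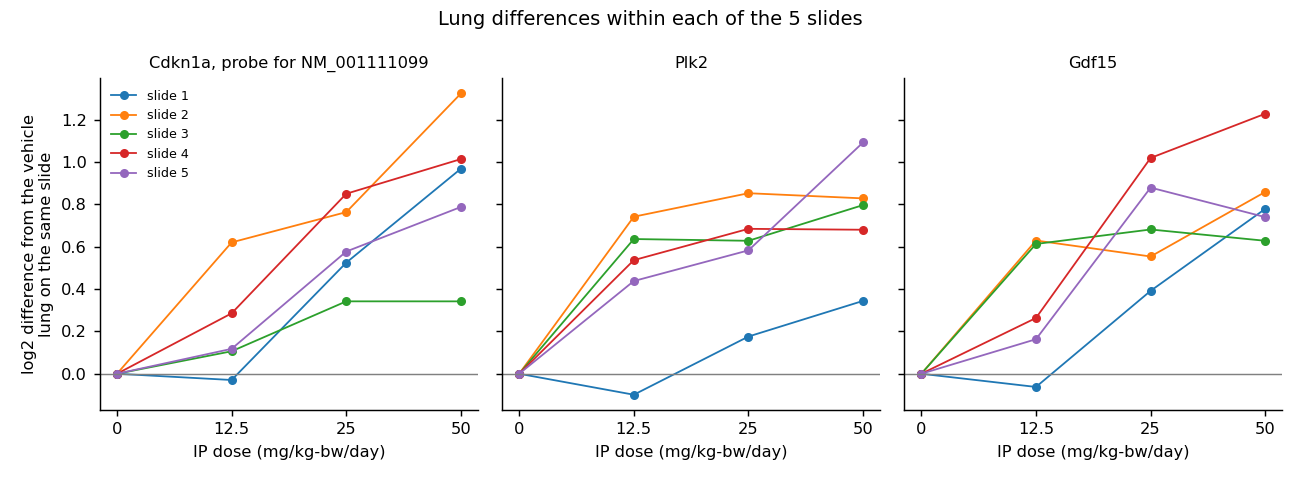
Log2 difference between each dosed lung and the vehicle lung on the same slide (vertical axis) by IP dose (horizontal axis), with 1 line for each of the 5 slides. For the NM_001111099 probe of Cdkn1a, Plk2 and Gdf15 every line lay above 0 at 25 and 50 mg/kg-bw/day, and slide 1 alone lay below 0 at 12.5 mg/kg-bw/day.

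p53 itself and its negative regulator were not called at any dose in lung. Trp53 read -1.65 to -0.96 in vehicle mice and -1.71 to -0.96 at 50 mg/kg-bw/day, a difference of 0.08 with a 95% interval of -0.20 to 0.36. Mdm2 read 0.03 to 0.27 in vehicle mice and 0.03 to 0.20 at 50 mg/kg-bw/day. Its difference of 0.02 had the narrowest interval of the 11 probes in lung, -0.11 to 0.15, which leaves out a 1.5-fold change in either direction.

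The remaining members were not called in lung either. Ccng1, cyclin G1, which recruits a phosphatase to Mdm2, was higher by 0.15 at 50 mg/kg-bw/day, with an interval of -0.02 to 0.33, and its slope over dose was 0.17 at an unadjusted limma p of 0.036 (adjusted p = 0.52). Btg2, an antiproliferative cofactor, was lower at each dose, by -0.25, -0.17 and -0.16, with adjusted p of at least 0.76. Sesn1 and Sesn2, the sestrins that act against oxidants and restrain mTOR signalling, differed by -0.11 and 0.08, within intervals of -0.30 to 0.07 and -0.13 to 0.29.

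Across the 20 lung arrays, taken as differences from the vehicle mean, the member closest to the NM_001111099 probe of Cdkn1a was Gdf15 (r = 0.90), followed by Plk2 (r = 0.77) and Ccng1 (r = 0.70). Within dose groups these values were 0.78, 0.45 and 0.59. The arrays shared slides and the reference RNA, and the values are a description. Over all 58 arrays, the 5 named probes most like the brightest Cdkn1a probe were Gm5591 (r = 0.56), Olfr1384 (r = 0.56), Ahrr (r = 0.54), Tmem30b (r = 0.54) and 1700109G14Rik (r = 0.52), none of them a member, and the closest member was Mdm2 (r = 0.29).

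Other p53 targets were listed from the pathway, with earlier results of these data known. Of 22 targets for cell death and DNA repair, 1 was called at 50 mg/kg-bw/day in lung, upward. This was Bax, which permeabilises mitochondria: it ranged from -1.15 to -0.66 in vehicle mice and from -0.42 to 0.03 at 50 mg/kg-bw/day, 1.73-fold higher (adjusted p = 0.0015), and it was also called at 25 mg/kg-bw/day (0.59 on the log2 scale, adjusted p = 0.038). At an unadjusted p under 0.05, 6 of the 22 were higher and 2 lower, and the median difference was 0.09 against 0.0005 over all probes. Of the 8, Ckap2, a mitotic spindle protein, also exceeded 1.5-fold (0.79 on the log2 scale, adjusted p = 0.35), and Phlda3, a p53-induced inhibitor of Akt signalling, passed the correction below that fold (0.56, adjusted p = 0.029, named after its value was seen).

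A list of 17 cell cycle genes around p21 held mostly cyclins, cyclin-dependent kinases and E2F targets, and also Rb1. Of these, 2 were called in lung at 50 mg/kg-bw/day and both were higher. Ccna2, cyclin A2, ranged from -4.30 to -3.70 in vehicle mice and from -3.72 to -2.47 in dosed mice, 1.95-fold higher (adjusted p = 0.017). Mki67, a proliferation marker, was 1.86-fold higher on its brighter probe (adjusted p = 0.044) and 1.95-fold on the other. In all, 8 of the 17, Rb1 among them, were higher and 0 lower at an unadjusted p under 0.05, with a median of 0.12. Of 12 regulators of p53, among them Mdm4, Atm and Chek2, 0 were called and 1 had an unadjusted p under 0.05, the kinase Atr (0.23, chosen for mention after its value was seen), with a median of -0.0009.

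Markers of other cells varied among the lungs, and were not tested. The mean log2 ratio of 4 fat genes ran from 1.04 to 4.10 in vehicle mice, 1.202 to 1.85 at 12.5, 0.79 to 1.75 at 25 and 0.90 to 1.59 at 50 mg/kg-bw/day. That of 5 heart muscle genes ran from 2.00 to 4.12, 0.61 to 3.19, 0.43 to 3.01 and 0.45 to 2.74 in the same order. For both lists the dosed ranges overlapped that of vehicle. The vehicle median of the fat genes, 3.21, nevertheless lay above every dosed lung, with dosed medians of 1.47, 1.06 and 1.30 from the lowest to the highest dose. The heart muscle medians were 3.13 in vehicle mice and 2.08, 2.03 and 2.60 in the dosed groups. That of 4 B cell genes ran from -0.16 to 1.31, -0.20 to 2.09, 1.05 to 1.75 and 1.33 to 1.75, without overlap at the highest dose alone, and that of 4 T cell genes from -0.48 to 0.03 in vehicle mice and -0.20 to 0.03 at the highest dose. Between 2 and 4 fat, between 4 and 5 heart and all 4 B cell genes were well above background on every vehicle lung array. The part of these cells in the lung differences was not tested. As a mark of exposure, Cyp1b1 rose 12.5-fold at the highest dose (adjusted p = 0.0014), and Cyp1a1 differed 18.9-fold (adjusted p = 0.084), its vehicle lungs ranging from 0.73 to 4.08.

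**Figure D3:**
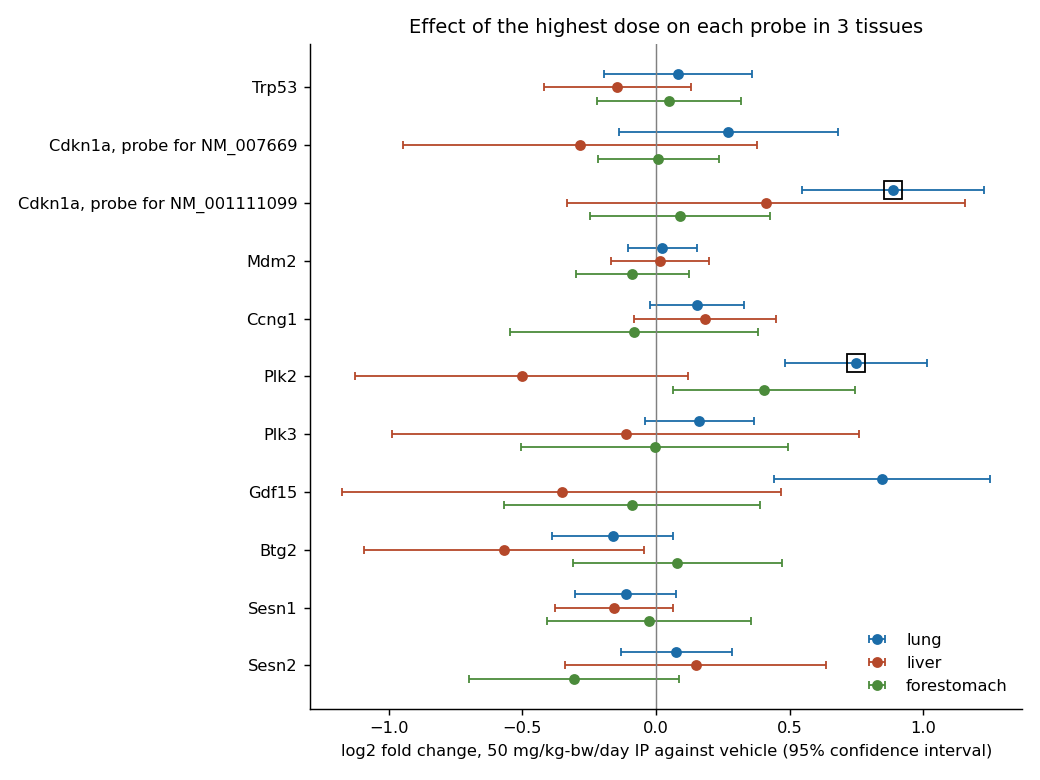
Log2 fold change of each of the 11 probes at 50 mg/kg-bw/day against vehicle (horizontal axis) in lung, liver and forestomach, with 95% confidence intervals. Black squares enclose the 2 probes called, both in lung. The liver intervals were widest for Plk3, Gdf15 and the 2 Cdkn1a probes.

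In liver no member was called. At the 3 doses 0 of 11 probes were called by limma, as for 0%, 0% and 0% of all probes. At an unadjusted p under 0.05 the members counted 1, 0 and 1, against 2.6%, 4.44% and 6.87% of all probes. The trend called 0 members and 0% of all probes. Mdm2 was the 1 member at 12.5 mg/kg-bw/day, with a difference of -0.19 (adjusted p = 1.00) that turned to 0.18 under median-centring, and at 50 mg/kg-bw/day its difference was 0.02, with an interval of -0.17 to 0.20.

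Btg2 was the 1 member at 50 mg/kg-bw/day. Its 4 vehicle livers read -1.45, -1.43, -1.42 and -1.45, and the 5 livers of the highest dose -2.005, -1.73, -1.93, -1.56 and -2.78. The groups did not overlap (exact two-sided p = 0.024), and the difference of -0.57 did not pass the correction (adjusted p = 0.72) and turned to 0.15 under median-centring. Without the 5 arrays of high detection it was -0.31 (adjusted p = 0.65). Under median-centring every member probe was positive in liver at this dose.

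The same 5 arrays stood apart for 2 other members. On the NM_001111099 probe of Cdkn1a they read -0.57 to 0.52, against -1.35 to -0.73 over the other 14 livers, and on Plk2 -2.95 to -1.76 against -1.80 to -1.04. Their Cdkn1a values lay above all other livers and their Plk2 values at the low end, with 1 of the 5 overlapping the rest, and every one of these mice was dosed. The part of detection in these differences was not tested. With all arrays the difference at 50 mg/kg-bw/day was 0.41 for Cdkn1a and -0.50 for Plk2. Without the 5 it was -0.04 and -0.21 (adjusted p = 0.95 and 0.71). This Cdkn1a probe was well above background in 0 of 4 vehicle livers and in 2 of 5 at the highest dose, both on arrays of high detection. Its vehicle level is therefore only a bound, and 0.41 and -0.04 are not measured folds.

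**Figure D4:**
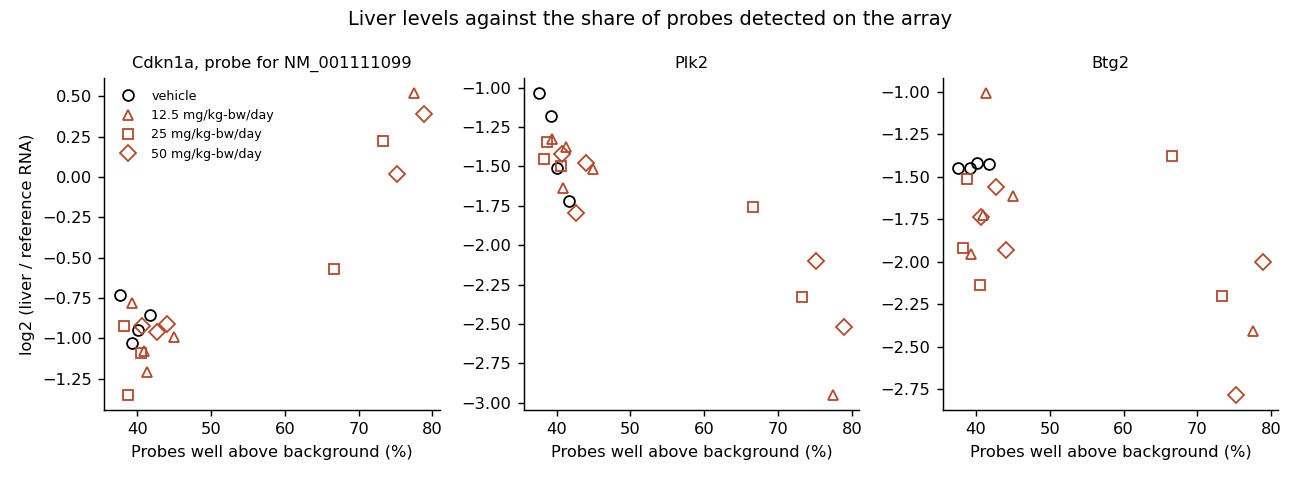
Log2 ratio of liver RNA to the reference RNA (vertical axes) against the share of probes well above background on the same array (horizontal axes, percent), with 1 symbol per liver and its shape giving the dose. The 5 arrays above 66% held the highest Cdkn1a values on the NM_001111099 probe, 4 of the 5 lowest Plk2 values and no vehicle liver.

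Gdf15 and Plk3 varied widely among livers. The vehicle livers of Gdf15 read 0.06, -0.78, 0.18 and 0.05, and those of the highest dose -0.29, -1.45, 0.22, -0.92 and 0.05, a difference of -0.35 with an interval of -1.17 to 0.47. This interval left out the lung difference of 0.85 but overlapped the lung interval of 0.44 to 1.25. The difference between the 2 tissues was not called (adjusted p of limma 0.53). Plk3 in vehicle livers ran from -0.31 to 2.06, and its difference of -0.11 had an interval of -0.99 to 0.76. Of the other lists, 0 genes were called in liver at any dose. At 50 mg/kg-bw/day 1 of 22 death and repair targets was higher and 3 were lower at an unadjusted p under 0.05, with a median of -0.03.

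In forestomach no member was called either. At the 3 doses 0 of 11 probes passed limma, as for 0%, 0% and 0% of all probes, and the trend called 0 members and 0% of all probes. At an unadjusted p under 0.05 the members counted 1, 0 and 1, against 4.12%, 3.6% and 3.89% of all probes. Plk2 was that member both times. It read -1.67, -1.81, -1.87 and -1.90 in the vehicle mice and -1.58, -1.19, -1.37, -1.40 and -1.50 at 50 mg/kg-bw/day. The groups did not overlap (exact two-sided p = 0.00794, the smallest that 4 against 5 mice allow), and the difference was 0.40, or 1.32-fold with an interval of 1.04 to 1.68 (adjusted p = 1.00).

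Neither Cdkn1a probe was called in forestomach, where the NM_007669 probe varied little among vehicle mice. It read 0.91, 0.82, 0.77 and 0.79 in the vehicle mice and 0.54, 1.06, 0.58, 0.91 and 1.05 at 50 mg/kg-bw/day. The difference of 0.01 had an interval of -0.22 to 0.24. At 12.5 mg/kg-bw/day all 5 mice lay below the vehicle mice, by -0.22 (exact two-sided p = 0.016, adjusted p = 0.98). Gdf15 differed by -0.09 at the highest dose, with an interval of -0.57 to 0.39. Of the other lists 0 genes were called.

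Whether the effect of the highest dose differed between tissues was tested in one model over all 58 arrays. The livers lay on slides of their own, so contrasts with liver also ran between sets of slides. For 0 of 11 members did the effect differ between lung and liver, between lung and forestomach or between forestomach and liver, against 0.0162%, 0.0144% and 0.00359% of all probes (adjusted p of limma at most 0.05, no fold limit). The closest was Plk2, whose effect was larger in lung than in liver by 1.25 on the log2 scale (SE 0.30, adjusted p = 0.24), or by 0.94 without the arrays of high detection (adjusted p = 0.41). For Gdf15, at 0.85 in lung and -0.35 in liver, the difference missed the correction as well (SE 0.42, adjusted p = 0.53). For the NM_001111099 probe of Cdkn1a the lung effect was the larger, by 0.48 on the log2 scale with all arrays and by 1.07 without those of high detection (adjusted p = 0.81 and 0.11). Calls in lung alone therefore do not show that the response was larger there.

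More members differed between tissues than between doses. Between vehicle mice 8 of 11 probes differed between lung and liver, against 38.8% of all probes, 7 between forestomach and liver, against 31.2%, and 5 between lung and forestomach, against 31.5% (adjusted p of limma at most 0.05). All livers lay on 3 slides of their own, whereas lung and forestomach shared 5 slides. In contrasts with liver, tissue and slide therefore cannot be told apart. Trp53 was not called between any 2 tissues, at -1.43 ± 0.27 (SD, n = 5) in lung, -1.38 ± 0.16 (n = 4) in liver and -1.24 ± 0.09 (n = 4) in forestomach, although the last exceeded lung by 0.31 once the arrays of high detection were left out (adjusted p = 0.030).

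Mdm2 was highest in lung (0.11 ± 0.10), 1.94-fold above liver and 1.81-fold above forestomach, and liver and forestomach were not called apart (interval of the log2 difference -0.08 to 0.27). Cdkn1a on its NM_007669 probe was highest in forestomach (0.82 ± 0.06), then lung (-0.36 ± 0.54), then liver (-2.39 ± 0.73), and each step was called: forestomach stood 9.24-fold above liver and lung 4.06-fold above it. Ccng1 was higher in lung and forestomach than in liver, by 2.74-fold and 2.39-fold, and lung and forestomach were not called apart (interval of the log2 difference -0.12 to 0.52). Btg2 ran in the order lung, forestomach, liver, with lung 3.66-fold above liver.

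Plk3 had the widest range of the group. It stood at 2.44 ± 0.11 in forestomach, 0.71 ± 1.17 in liver and -0.84 ± 0.11 in lung, and all 3 pairs differed. Plk2 and the NM_001111099 probe of Cdkn1a were not called between any pair with all arrays, and without the arrays of high detection Plk2 was lower in forestomach than in lung or liver (adjusted p = 0.027 and 0.030). In vehicle mice this Cdkn1a probe was well above background in 5 of 5 lungs, 0 of 4 livers and 1 of 4 forestomachs. Plk2 was so in 2 of 4 vehicle livers. The absence of a call therefore does not show equal levels, and the Plk2 contrast with liver rests partly on dim signal. Gdf15 was highest in liver (-0.12 ± 0.44), with a log2 difference of -1.89 for lung minus liver and -2.60 for forestomach minus liver, while lung against forestomach missed the correction (adjusted p = 0.068). Sesn1 and Sesn2 were lowest in liver, Sesn1 with 0.95 to each of the other tissues and Sesn2 with forestomach above lung. Mouse numbers are shared across tissues, and with mouse as a replicate block the counts of 8, 7 and 5 were the same. That block does not separate liver from its slides.

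**Figure D5:**
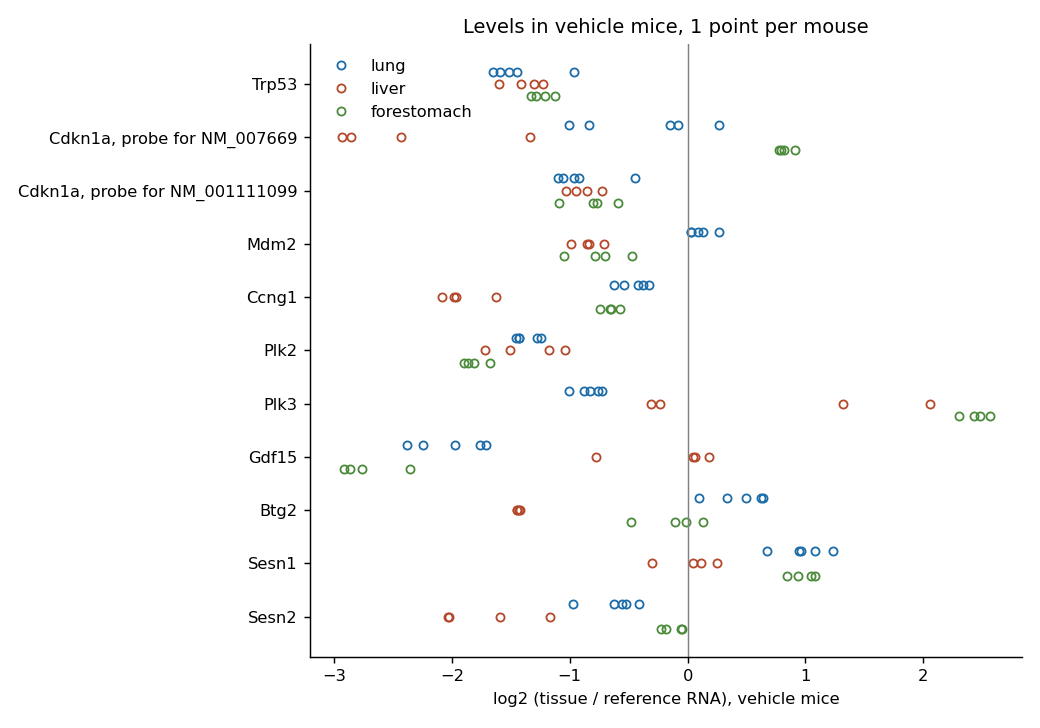
Log2 ratio of tissue RNA to the reference RNA (horizontal axis) in vehicle mice for the 11 probes, 1 circle per mouse (5 lungs, 4 livers, 4 forestomachs). The tissue means lay furthest apart for Plk3 and then for the NM_007669 probe of Cdkn1a, which was lowest in liver, and Trp53 overlapped across all 3 tissues. Positions are comparable along a row and not between rows.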

How the data were processed

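The authors labelled tissue RNA with Cy5 and universal reference RNA with Cy3, hybridised Agilent two-colour arrays and deposited the scanner's intensity values per spot, with the scanner software's log10 ratio of processed signals as a further alternative; they also deposited normalised log2 ratios, used only as an alternative for lung and forestomach because the liver values did not match the scanner values under their probe names. Median intensities without background subtraction were turned into log2(Cy5/Cy3) and loess-normalised within each array, control spots had weight 0, outlier spots were dropped, and spots of a probe were averaged. limma 3.58.1 (R 4.3.3) fitted the 4 groups of a tissue, a linear trend over dose, and all 12 groups together; p-values were adjusted (Benjamini-Hochberg) over 55681 probes. Mouse numbers in the labels were taken to pair tissues of one animal. The median r of same-numbered deviations was 0.04 for lung with liver, 0.15 for lung with forestomach and 0.02 for liver with forestomach. For other mice of the same dose it was -0.02, -0.04 and -0.01. Lung and forestomach of nearly every mouse number shared a slide, so their r cannot separate mouse from slide. Fits were tested on simulated data. The members and gene lists were chosen with earlier results of these data known. Genes of other lists were named where a probe passed both thresholds, or had an unadjusted p under 0.05 and 1.5-fold at the highest dose; others are said to be chosen after their values were seen. Nothing says whether slides were processed in separate batches. The number of arrays limits the precision.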

Additional observations from a re-analysis of the deposited data

Results flagged for a closer look

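In 12 of 132 groups of 4 or 5 mice, 1 mouse lay far from the rest by Dixon's criterion, which chance alone would reach in about 1 of 20 groups. In lung, Trp53 of mouse 8 (12.5 mg/kg-bw/day) read -1.05 against -1.55 to -1.42 in the other 4 mice, and Ccng1 of the same mouse -0.23 against -0.57 to -0.49. The NM_007669 probe of Cdkn1a read -0.47 in mouse 14 (25 mg/kg-bw/day) against -0.14 to -0.05. The NM_001111099 probe read -0.44 in vehicle mouse 3 against -1.10 to -0.92; the arrays of mice 3 and 8 were among the 4 lung arrays of high detection. Btg2 read 0.0319 in mouse 16 (50 mg/kg-bw/day) against 0.28 to 0.38.

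In liver, mouse 9 (12.5 mg/kg-bw/day), on an array of high detection, read 0.52 on the NM_001111099 probe of Cdkn1a against -1.21 to -0.78, and -2.95 on Plk2 against -1.64 to -1.32. Ccng1 read -1.43 in mouse 8 at that dose against -2.06 to -1.91, and Gdf15 -0.78 in vehicle mouse 2 against 0.05 to 0.18. In forestomach, Trp53 read -1.25 in mouse 15 and Gdf15 -2.35 in mouse 13 (both 25 mg/kg-bw/day), against -0.999 to -0.911 and -2.95 to -2.79. Sesn1 read 0.31 in mouse 6 (12.5 mg/kg-bw/day) against 1.08 to 1.37.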

How the results depend on the processing

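Member probes called at 50 mg/kg-bw/day in lung numbered 2, and 0 with median-centring or the scanner software's log ratio, 1 when the 2 groups were fitted alone, and 1 without the arrays of high detection, an alternative chosen after seeing the data; by trend in lung they numbered 2, and 0, 0 and 1 under median-centring, the scanner ratio and that omission. Of all 55681 probes, 44 were called at 50 mg/kg-bw/day in lung and 78 by trend. Without the arrays of high detection 26 and 25 were called. The shares of all probes under median-centring, the scanner ratio and the fit of 2 groups alone are not given. With slide as a block 3 member probes were called at 25 mg/kg-bw/day in lung against 0, and the share of all probes called in that model is not given. At an unadjusted p under 0.05 and 1.2-fold the counts were 1 and 3 in lung at 12.5 and 25, 1 in liver at 50, and 1 and 1 in forestomach at 12.5 and 50 mg/kg-bw/day. In lung at 50 mg/kg-bw/day the 3 members with an unadjusted p under 0.05 also exceeded 1.2-fold. The share of all probes past both limits is not given, so none of these counts can be set against it. Leaving out 1 mouse gave 1 to 3 at 50 mg/kg-bw/day in lung, 0 to 3 by trend in lung (0 without mouse 17, and 1 without any single vehicle mouse or mouse 18, 19 or 20), 0 to 1 for the difference between lung and liver (1 without liver mouse 9), and 3 to 6 between vehicle lung and forestomach (3 without lung mouse 2 or forestomach mouse 1). Median-centring reversed Mdm2 at 12.5 (0.18) and Btg2 at 50 mg/kg-bw/day (0.15) in liver. Under it every member probe was positive at 50 mg/kg-bw/day in lung, in liver and in forestomach. The log2 fold change of Cdkn1a in lung stayed between 0.87 and 1.49 and that of Plk2 was 0.92 and 0.72 with median-centring and the scanner ratio. With mouse as a replicate block the counts between tissues were 0, 0 and 0 for the dose effect and 8, 7 and 5 for vehicle mice. Aquantile normalisation leaves log ratios unchanged by construction, so it was no separate check. The cause was not tested. Dim signal limits the NM_001111099 probe in liver and forestomach and Plk2 in liver.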

Other observations

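Of 9 paralogs of the members, such as Cdkn1b, Ccng2, Btg1 and Sesn3, 0 were called in any tissue. In lung at 50 mg/kg-bw/day 1 was higher and 0 lower at an unadjusted limma p under 0.05, and the median difference was -0.06. The 1 was Plk1, a mitotic kinase (0.30, adjusted p = 0.26, named after its value was seen). In liver 2 were lower at 50 mg/kg-bw/day by the same measure, Btg1 (-0.32) and again Plk1 (-0.26), with adjusted p of 0.71 and 0.72.

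Of 14 immediate early genes, which respond within minutes to handling and stress, 0 were called in any tissue. Their median difference at 50 mg/kg-bw/day was 0.00 in lung, -0.22 in liver, where Fos (-0.40) and Ier3 (-0.40) were lower at an unadjusted p under 0.05, and 0.04 in forestomach. Of 10 glucocorticoid-induced genes 0 were called, and those past 1.5-fold at an unadjusted p under 0.05 were all lower. These were Tsc22d3 in lung (-0.95, adjusted p = 0.29) and Ddit4 (-0.73), Tsc22d3 (-0.76) and Zbtb16 (-1.09) in liver, with adjusted p of at least 0.48. In forestomach Mki67 differed by -0.70 (adjusted p = 1.00), on the other side of 0 from lung; the difference between the tissues was not tested.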
